A study of Homo sapiens with 40 samples.

Results

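MYC, its relative MYCL, and the growth genes ODC1 and NCL were followed in 40 spotted 2-colour arrays of lymphoma cells in which NF-kB, STAT3 or cytokine signalling had been changed. The 4 genes were taken by name: each of the 11 probes chosen carried one of these symbols alone in the probe annotation, which covers 4604 genes and 15246 probes in all. MYC and ODC1 had 4 probes each, MYCL had 2 and NCL had 1.

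MYC is a transcription factor that pairs with MAX and binds E-box sequences near the genes it activates. In B cells it drives growth and entry into the cell cycle, and it is silenced when cells become plasma cells. ODC1, ornithine decarboxylase, catalyses the rate-limiting step of polyamine synthesis and is a textbook target of MYC. NCL, nucleolin, is an abundant nucleolar protein that acts in the making of ribosomal RNA, and it too is a known MYC target. MYCL is a member of the MYC family best known from lung cancer.

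The cells were OCI-Ly3 and OCI-Ly10, established human lymphoma lines of the activated B cell-like (ABC) subtype of diffuse large B cell lymphoma. On each array the Cy5 channel held RNA of treated cells and the Cy3 channel RNA of its control cells from that line, so a value is a ratio within 1 line and says nothing of the level before treatment. OCI-Ly3 cells received IL-10 at 50 ng/ml for 1 to 96 h (10 arrays), or expressed an IkB super-repressor induced with doxycycline at 20 ng/ml for 1 to 6 h (9 arrays). This engineered IkB alpha resists degradation and so keeps NF-kB out of the nucleus. OCI-Ly10 cells expressed the same super-repressor for 1.5 to 24 h (4 arrays), received IL-6 at 50 ng/ml for 0.5 to 24 h (8 arrays), were transfected with STAT3 siRNA at 4 uM for 8 to 48 h against no siRNA (5 arrays), or were given JAK inhibitor I at 5 uM for 3 and 6 h (4 arrays). No array tested an siRNA without a target, or doxycycline in cells that lack the super-repressor.

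Values below are log2 ratios of treated over control; the base is taken to be 2, which the values do not settle. Each array was centred on its median, probes of a gene were averaged, and 1 mean per experiment and time was fitted with limma over all 40 arrays. A gene is said to have risen or fallen in an experiment when its mean over the listed times differed from 0 at an adjusted p under 0.05. Between 8862 and 14947 probes had a value on an array. No dyes were swapped, so any dye bias of a probe remains part of its values. The array identifiers form 12 consecutive runs that the labels do not describe, and replicates of a time point always lay in different runs. The number of arrays limits the precision, and the labels do not say whether replicates were separate cultures, so the p-values cover only the scatter of these samples, which may be technical. STAT3, the siRNA target, was below 0 on 5 of 5 siRNA arrays (-2.26 to -0.89). NFKBIA, which NF-kB transcribes, was at -1.61 ± 0.10 (SE) in OCI-Ly3 and at -1.03 ± 0.15 in OCI-Ly10 after the super-repressor, although its probes could also detect the introduced gene.

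The windows just before the annotated starts of ODC1, NCL and MYCL are given here because MYC acts through E-boxes (CACGTG). They are from RefSeq, build GRCh38.p14, on the minus strand, and the 3 windows of 250 bases end at the base before the start. Both strands were searched for CACGTG, for the E-box variant CACGCG, for the STAT site TTCNNNGAA and for the NF-kB site. Of 35116 such windows of 250 bases over all genes 6.35% held CACGTG, 9.72% CACGCG, 6.57% the STAT site and 5.21% the NF-kB site. ODC1 has 2 annotated starts. A CACGTG lies 29 bases before one of them (first line, chr2:10448024-10448053, capitals), and an overlapping pair of the variant, which reads the same on both strands, lies 209 bases before the other (second line, chr2:10448328-10448577, capitals). One NF-kB site match, GGGACTCCCC, lies 104 bases before the start of the first line, and outside the 30 bases printed. On the minus strand the CACGTG and this NF-kB match lie downstream of the other ODC1 start, inside the longer transcripts. In the windows of NCL (chr2:231464485-231464734) and MYCL (chr1:39901918-39902167) none of the 4 motifs was found. A match is only a run of letters, and the arrays do not show what binds there.
ODC1, CACGTG before a start: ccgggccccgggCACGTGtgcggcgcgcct
ODC1, window of the other start: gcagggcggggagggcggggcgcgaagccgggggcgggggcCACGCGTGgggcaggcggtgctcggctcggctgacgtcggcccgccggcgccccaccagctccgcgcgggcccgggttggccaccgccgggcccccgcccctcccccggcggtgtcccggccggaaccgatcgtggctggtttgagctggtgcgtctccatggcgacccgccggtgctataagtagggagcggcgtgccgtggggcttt
NCL: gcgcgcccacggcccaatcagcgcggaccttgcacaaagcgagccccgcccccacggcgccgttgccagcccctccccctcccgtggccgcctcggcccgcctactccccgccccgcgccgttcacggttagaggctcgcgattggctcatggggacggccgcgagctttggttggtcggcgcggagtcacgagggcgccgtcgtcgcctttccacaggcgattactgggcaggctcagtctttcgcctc
MYCL: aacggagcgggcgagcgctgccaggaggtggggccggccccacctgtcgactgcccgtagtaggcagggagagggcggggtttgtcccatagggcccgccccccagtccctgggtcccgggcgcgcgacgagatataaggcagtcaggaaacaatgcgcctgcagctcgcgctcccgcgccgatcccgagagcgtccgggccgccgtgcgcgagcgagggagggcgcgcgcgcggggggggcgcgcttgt

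MYC fell in 2 of the 6 experiments, with IL-10 in OCI-Ly3 and with JAK inhibitor I in OCI-Ly10, and it rose in none. Its mean over the tested times was lowest with the JAK inhibitor (-0.70), then with IL-10 (-0.44), the super-repressor in OCI-Ly10 (-0.38), STAT3 siRNA (-0.18), the super-repressor in OCI-Ly3 (-0.09) and IL-6 (-0.01). The 95% intervals of neighbours in this order overlapped. The tested times differed between experiments, so the order does not rank the treatments at equal times. At 3 h MYC was at -0.83 with the JAK inhibitor and at -0.55 with IL-10. At 6 h it was at -0.56 with the JAK inhibitor and at -1.01 with IL-10. The mean for STAT3 siRNA left out the array of 8 h (-1.16). Over single arrays MYC ran from -1.56 to 0.41 with a median of -0.23, and was below 0 on 28 of 40. Its 4 probes followed each other across arrays (correlations of 0.71 to 0.92 between pairs of probes over the 36 arrays with all of them), and differed by a median of 0.27 on an array and by up to 1.68.

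**Figure D1:**
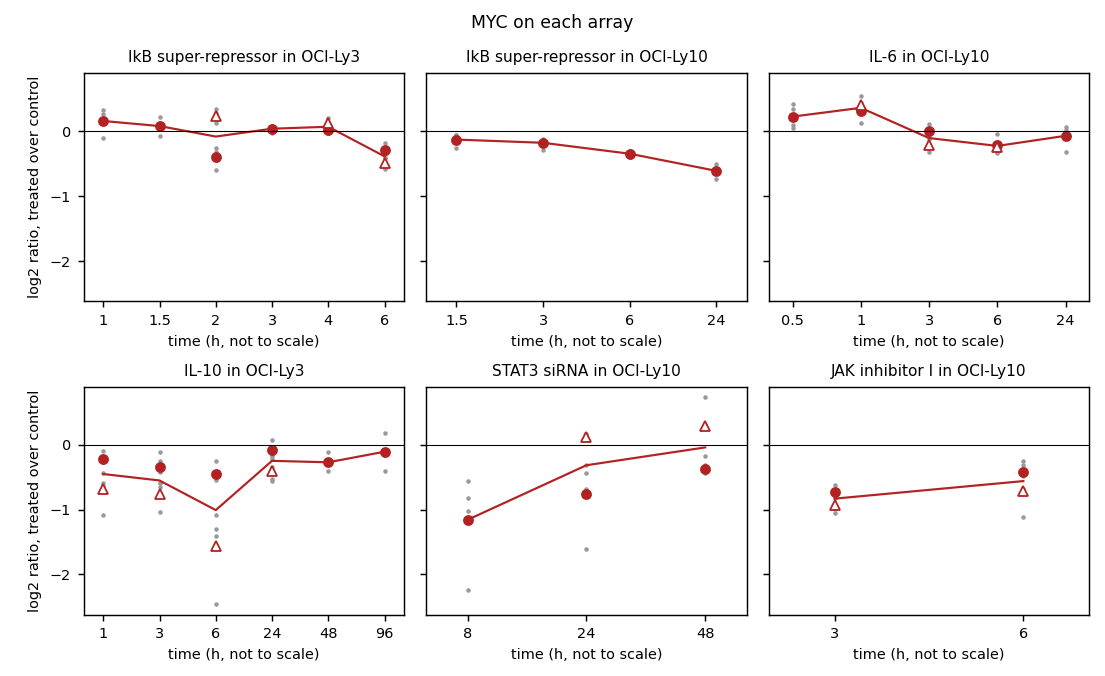
Log2 ratio of MYC, treated over control, on each of 40 arrays against time in hours (times are spaced evenly, not to scale), in 6 panels by experiment. Filled circles are replicate 1 or the only array of a time, open triangles are replicate 2 (mean over probes), small grey points are single probes and the line joins time-point means. With the JAK inhibitor and with IL-10 every array lies below 0, and the 2 STAT3 siRNA arrays of replicate 2 lie above 0 while the other 3 lie below.

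JAK inhibitor I blocks the kinases that activate STAT3. At 3 h the 2 arrays gave MYC values of -0.73 and -0.94, and those of 6 h gave -0.41 and -0.71. All 4 arrays were below 0, and both arrays of 3 h lay below both arrays of 6 h. The mean of 3 and 6 h was -0.70 ± 0.16 (SE, adjusted p = 0.0213 with limma, 4 of 4 arrays), in an experiment in which 3.26% of 4480 genes passed. The 4 probes gave -0.71, -0.66, -0.81 and -0.60, and the first 3 passed alone. Within the 2 runs of arrays the means were -0.57 and -0.82. The call was lost without the first array of 3 h (-0.75), without the second (-0.64) and without the second of 6 h (-0.62), with adjusted p up to 0.193, and in a fit of these 4 arrays alone (adjusted p = 0.0607).

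The other 3 genes did not pass under the inhibitor. The 3 h arrays gave ODC1 values of 0.05 and 0.06 and the 6 h arrays -0.30 and -0.28, so both arrays of 6 h lay below both arrays of 3 h. Its mean was -0.12 ± 0.09 (adjusted p = 0.555 with limma). NCL was at -0.23 and 0.05 on the arrays of 1 run and at -0.98 and -1.06 on those of the other, a split by run and not by time. MYCL lay between -0.35 and -0.01.

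IL-10 activates STAT3 through its receptor. In OCI-Ly3 MYC values were -0.22 and -0.69 after 1 h, -0.34 and -0.76 after 3 h, -0.45 and -1.56 after 6 h, -0.09 and -0.41 after 24 h, -0.27 after 48 h and -0.11 after 96 h. All 10 arrays were below 0 and the lowest values came at 6 h. The mean was -0.44 ± 0.11 (SE, adjusted p = 0.00413 with limma, 10 of 10 arrays), where 35.3% of 4383 genes passed. All 4 probes passed alone (-0.46, -0.27, -0.46 and -0.61). Replicate 2 was lower than replicate 1 at each of the 4 times with both. The run of replicate 2 had a mean of -0.86, that of replicate 1 of -0.28, and that of the arrays of 48 and 96 h of -0.19.

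At 6 h alone MYC fell by 1.01 ± 0.23 (SE, 2 arrays, adjusted p = 0.0103 with limma), at a time when 6.79% of genes passed. On the second array 1 probe reached -2.46 and the others -1.09 to -1.41. Without that array the value was -0.45 and did not pass (adjusted p = 0.457). The mean was -0.67 over 1 to 6 h and -0.21 over 24 to 96 h. The difference of 0.46 ± 0.22 (95% interval 0.005 to 0.92) did not pass (adjusted p = 0.198), where 13.5% of genes did. With a block for the replicate number, which pairs the arrays of 1 to 24 h and leaves the unnumbered arrays of 48 and 96 h at 0, it passed (0.46, adjusted p = 0.0267), as it did without the first array of 6 h (0.65, adjusted p = 0.0356). It did not pass when the fit blocked on the run (0.46, adjusted p = 0.203).

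Among the regulators of MYC, PRDM1 encodes BLIMP1, which represses MYC in plasma cell differentiation. With IL-10 PRDM1 was above 0 on 10 of 10 arrays (0.23 to 3.61), with the highest value at 96 h, when MYC was at -0.11. PRDM1 passed at 1 h (0.70 and 1.04, adjusted p = 0.021 with limma) and at 6 h (1.01 and 1.28, adjusted p = 0.000458). At 3 h it did not pass (0.23 and 0.80, adjusted p = 0.149). The late times of PRDM1 exceeded the early ones by 2.07 ± 0.17 (adjusted p = 1.06e-07 with limma). STAT3 rose by 1.37 ± 0.11 (adjusted p = 1.45e-08) and was at 0.31 and 0.02 at 1 h. MYC was then at -0.22 and -0.69, and neither gene passed at 1 h alone (adjusted p = 0.957 for STAT3 and 0.762 for MYC). BCL6, a germinal centre repressor, rose by 0.54 ± 0.05 (adjusted p = 8.65e-08). IRF4, an activator of MYC in activated B cells, rose by 0.39 ± 0.08 (adjusted p = 0.00133, 8 of 10 arrays) and fell from early to late times by 0.67 ± 0.17 (adjusted p = 0.0105).

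**Figure D2:**
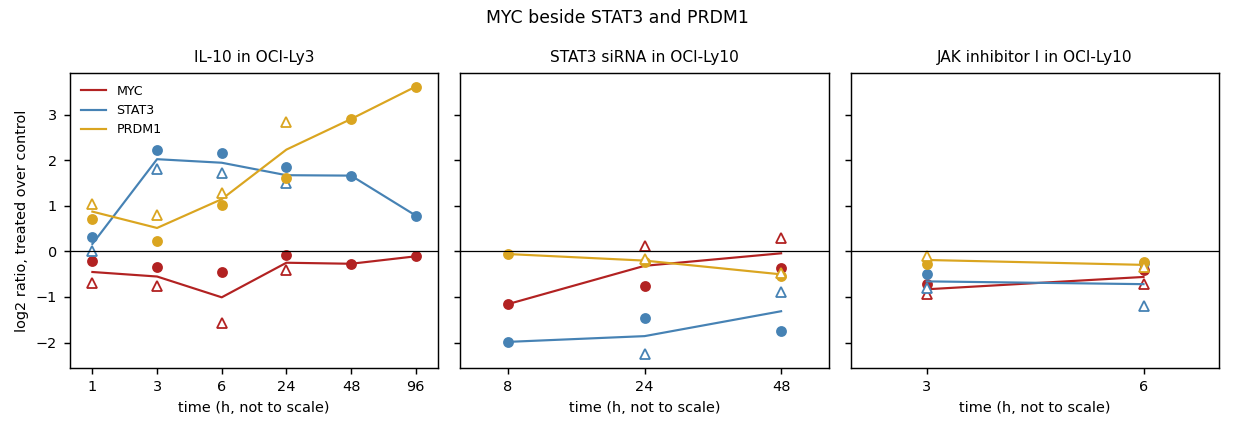
Log2 ratio, treated over control, of MYC (red), STAT3 (blue) and PRDM1 (gold) against time in hours (spaced evenly, not to scale) with IL-10, STAT3 siRNA and JAK inhibitor I. Filled circles are replicate 1 or a lone array, open triangles replicate 2 and lines join time-point means. With IL-10 PRDM1 climbs to 3.61 at 96 h while MYC is lowest at 6 h, and with the JAK inhibitor MYC and STAT3 lie below 0 on all 4 arrays.

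STAT3 siRNA asks what MYC does when STAT3 itself is lowered. The single array of 8 h gave MYC a value of -1.16, those of 24 h gave -0.76 and 0.12, and those of 48 h -0.37 and 0.29. The replicates went opposite ways at both times that had them. The 3 arrays of 1 run had a mean of -0.76 and the 2 of the other run 0.21, with no overlap, while STAT3 was low in both (means -1.73 and -1.57). Over 24 and 48 h MYC was at -0.18 ± 0.16 (SE, adjusted p = 0.565 with limma, 2 of 4 arrays below 0), where 3.31% of 4346 genes passed, and without the first array of 24 h it was at 0.04. The value at 8 h passed (adjusted p = 0.0459, with 5.29% of genes passing at that time), although it rests on 1 array and its spread comes from other times. Its 4 probes were at -1.02, -0.56, -0.82 and -2.23, and their median of -0.92 did not pass (adjusted p = 0.0655), nor did the value of the fit that blocks on the run (-0.99, adjusted p = 0.0623).

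IL-6, a cytokine that can activate STAT3, left the mean of MYC in OCI-Ly10 near 0. The arrays do not show whether STAT3 was activated. MYC values were 0.23 after 0.5 h, 0.31 and 0.41 after 1 h, 0.00 and -0.21 after 3 h, -0.21 and -0.24 after 6 h and -0.07 after 24 h. The 3 arrays up to 1 h were above 0, and the 5 from 3 h on lay between -0.24 and 0.00. No single time passed, and the value at 1 h had an adjusted p of 0.713. The mean of 1 to 24 h was -0.01 ± 0.13 (95% interval -0.28 to 0.26, adjusted p = 0.982 with limma), where 4.54% of 3301 genes passed.

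IL-10 in OCI-Ly3 and IL-6 in OCI-Ly10 share the times 1, 3, 6 and 24 h. Over these MYC was at -0.57 with IL-10 and at -0.01 with IL-6, a difference of -0.56 ± 0.17 (SE, 95% interval -0.92 to -0.19, adjusted p = 0.0496 with limma), where 9.49% of genes differed. The cytokine and the cell line change together in this comparison and cannot be told apart. The call was lost on leaving out any one of 12 of the 15 arrays (-0.60 to -0.42, adjusted p up to 0.106), and in the fit that blocks on the run (adjusted p = 0.187). The 12 were all 7 IL-6 arrays and, with IL-10, the second array of 1, 3 and 6 h and each of the arrays of 24 h. Within OCI-Ly10 the inhibitor and IL-6 share 3 and 6 h, when MYC was at -0.70 and -0.16. That difference of -0.53 ± 0.23 (95% interval -1.02 to -0.05) had an adjusted p of 0.315 and did not pass (2.09% of genes did), although it passed in a fit of these 2 experiments alone (adjusted p = 0.0371).

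NF-kB block moved MYC little in OCI-Ly3. Its values there were 0.16 after 1 h, 0.08 after 1.5 h, -0.40 and 0.24 after 2 h, 0.04 after 3 h, 0.01 and 0.13 after 4 h and -0.28 and -0.49 after 6 h. Only at 2 and 6 h did arrays fall below 0. Its mean over 2 to 6 h was -0.09 ± 0.13 (SE, 95% interval -0.36 to 0.18, adjusted p = 0.65 with limma), in an experiment in which 14.0% of 4390 genes passed. Across genes the replicates of 2 h had a correlation of -0.05, against 0.70 at 4 h and 0.55 at 6 h.

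In OCI-Ly10 the super-repressor arrays gave MYC values of -0.13 (1.5 h), -0.18 (3 h), -0.35 (6 h) and -0.61 (24 h), lower at each later time, with 1 array a time. The mean over 3 to 24 h was -0.38 ± 0.19 (SE, 95% interval -0.77 to 0.02, adjusted p = 0.811 with limma) and did not pass, where 0.532% of 4515 genes did. At the shared times of 1.5, 3 and 6 h the lines differed by 0.13 ± 0.26 for MYC (OCI-Ly3 minus OCI-Ly10, 95% interval -0.41 to 0.66, adjusted p = 0.994). In that comparison 0 of 4384 genes passed with limma, and 108 had an unadjusted p under 0.05. IRF4 fell in OCI-Ly3 by 0.45 ± 0.10 (adjusted p = 0.00702 with limma) and was at -0.64 ± 0.15 in OCI-Ly10 (adjusted p = 0.0545).

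ODC1 rose in 1 experiment, the super-repressor in OCI-Ly3, in which MYC did not pass. ODC1 values were 0.21 after 1 h, 0.38 after 1.5 h, 0.01 and 0.53 after 2 h, 0.38 after 3 h, 0.47 and 0.50 after 4 h and 0.25 and 0.10 after 6 h. All 9 arrays were above 0, with the lowest and the highest both at 2 h. Its mean over 2 to 6 h was 0.33 ± 0.07 (SE, adjusted p = 0.00536 with limma, 7 of 7 arrays). The 4 probes gave 0.25, 0.41, 0.31 and 0.34, and each passed alone. It was 0.35 without both arrays of 2 h (adjusted p = 0.00688) and 0.31 above the mean of the other 5 experiments (adjusted p = 0.0175), both alternatives chosen after the data were seen. With the run as a block it was 0.32 and did not pass (adjusted p = 0.0537).

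In the other 5 experiments the mean of ODC1 did not pass, and single arrays reached 0.37 and -0.30. With the super-repressor in OCI-Ly10 it was at 0.03, 0.33, 0.15 and -0.21 at 1.5, 3, 6 and 24 h, and the mean of 0.09 ± 0.10 over 3 to 24 h did not pass (adjusted p = 0.998 with limma). With IL-6 it was at 0.37 at 0.5 h and between -0.12 and 0.10 from 1 h on. The siRNA arrays all lay between 0.08 and 0.18, a mean of 0.10 ± 0.09 over 24 and 48 h (adjusted p = 0.531). With IL-10 it ran from -0.24 to 0.31 with a mean of 0.03 ± 0.06 (95% interval -0.10 to 0.15, adjusted p = 0.769), while MYC fell. The run of replicate 1 had a mean of 0.21 and that of replicate 2 of -0.10. SAT1, which breaks polyamines down, was 1 of 2 listed polyamine genes on the array. It rose by 0.69 ± 0.08 with IL-10 (adjusted p = 2.05e-06, 10 of 10 arrays) and by 0.29 ± 0.10 with the super-repressor in OCI-Ly3 (adjusted p = 0.0479), where it did not pass without both arrays of 2 h (0.24, adjusted p = 0.157).

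MYCL fell with the super-repressor and with IL-10 in OCI-Ly3. After the super-repressor its values were -0.22 after 1 h, -0.09 after 1.5 h, -0.15 and -0.45 after 2 h, -0.49 after 3 h, -0.36 and -0.47 after 4 h and -0.69 and -0.29 after 6 h. All 9 arrays were below 0, and the mean of 2 to 6 h was -0.42 ± 0.08 (SE, adjusted p = 0.00253 with limma). With IL-10 MYCL ran from -0.69 to 0.24 and was above 0 at 48 h alone. Its mean was -0.28 ± 0.07 (adjusted p = 0.00314, 9 of 10 arrays), and of single times 24 h passed (-0.51, adjusted p = 0.0269, with 9.80% of genes passing), though not without its second array (-0.32, adjusted p = 0.606).

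The MYCL values rest on few spots. The gene had a value on 36 of 40 arrays and both probes did on 18, where their correlation was -0.24. At 48 h of IL-10 they were at -0.30 and 0.77, and on 1 array of the inhibitor at 6 h they were at -0.86 and 0.55. Probe 1 alone gave -0.47 ± 0.09 with the super-repressor in OCI-Ly3 (adjusted p = 0.00536 with limma) and -0.43 ± 0.08 with IL-10 (adjusted p = 0.000606). Probe 2 was at -0.14 ± 0.13 with IL-10, where it had a value on 7 of 10 arrays and was not tested. MYCL was below 0 on 33 of its 36 arrays in all. It was not tested with IL-6 or with the super-repressor in OCI-Ly10, where values were missing, and did not pass with the siRNA (-0.26 ± 0.10, adjusted p = 0.147) or the inhibitor (-0.14 ± 0.10, adjusted p = 0.55).

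NCL fell with IL-6 and with IL-10, and its single probe was below 0 on 31 of 40 arrays. With IL-6 NCL values were -1.72 after 0.5 h, -0.77 and -1.11 after 1 h, -0.09 and -0.60 after 3 h, -0.95 and -0.91 after 6 h and -0.98 after 24 h. All 8 arrays were below 0, and the mean of 1 to 24 h was -0.80 ± 0.19 (SE, adjusted p = 0.0192 with limma). It did not pass without the second array of 1 h (-0.76, adjusted p = 0.0665) or of 3 h (-0.73, adjusted p = 0.076), nor when the fit blocked on the run (-0.81, adjusted p = 0.0889).

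With IL-10 NCL values were 0.54 and -0.47 after 1 h, 0.32 and -0.32 after 3 h, -0.17 and -1.17 after 6 h, -0.25 and -0.85 after 24 h, -1.06 after 48 h and -1.37 after 96 h. The mean was -0.60 ± 0.16 (adjusted p = 0.00717 with limma, 8 of 10 arrays), and without the array of 96 h it was -0.45 and did not pass (adjusted p = 0.0555). Its 3 runs had means of 0.11, -0.70 and -1.22. The late times were lower than the early ones by -0.78 ± 0.32 (adjusted p = 0.127, and adjusted p = 0.0227 with the replicate number as a block, which leaves the arrays of 48 and 96 h unpaired). When the fit blocked on the run it did not pass (adjusted p = 0.143). At 24 h each replicate was below its own values of 1 and 3 h, but replicate 2 was lower at 6 h (-1.17) than at 24 h (-0.85). For 48 and 96 h time and run cannot be told apart, since these arrays form a run of their own.

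NCL was also negative in experiments where it did not pass. With the super-repressor in OCI-Ly10 it was at 0.11, -0.43, -0.65 and -1.04 at 1.5, 3, 6 and 24 h (mean of 3 to 24 h -0.71 ± 0.28, adjusted p = 0.59 with limma). In OCI-Ly3 it was at -1.51 on 1 array of 2 h and between -0.32 and 0.35 on the others. On the siRNA arrays it ran from -1.07 at 8 h to 1.06 on the second array of 48 h. Relative to the mean of the other 5 experiments NCL was at -0.38 with IL-6 (adjusted p = 0.296) and at -0.15 with IL-10 (adjusted p = 0.648). The same subtraction, which was chosen after the data were seen, gave -0.48 for MYC with the inhibitor (adjusted p = 0.163) and -0.17 with IL-10 (adjusted p = 0.393). A dye bias of these probes was not tested.

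**Figure D3:**
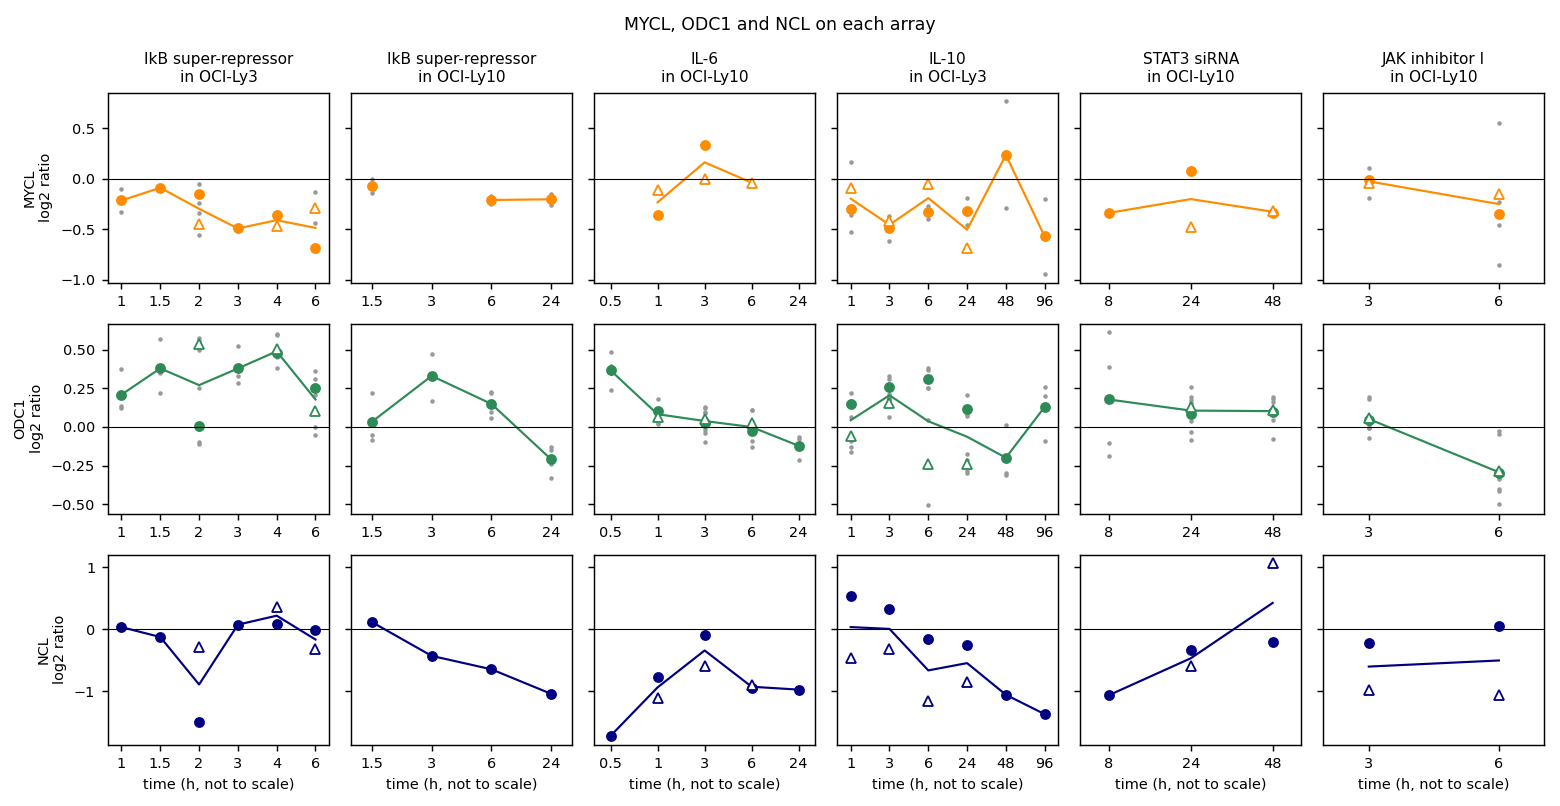
Log2 ratio, treated over control, of MYCL, ODC1 and NCL (rows) in the 6 experiments (columns) against time in hours, spaced evenly and not to scale. Filled circles are replicate 1 or a lone array, open triangles replicate 2, grey points single probes (NCL has 1) and lines join time-point means. ODC1 is above 0 on all 9 arrays of the super-repressor in OCI-Ly3, and NCL is below 0 on all 8 IL-6 arrays.

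**Figure D4:**
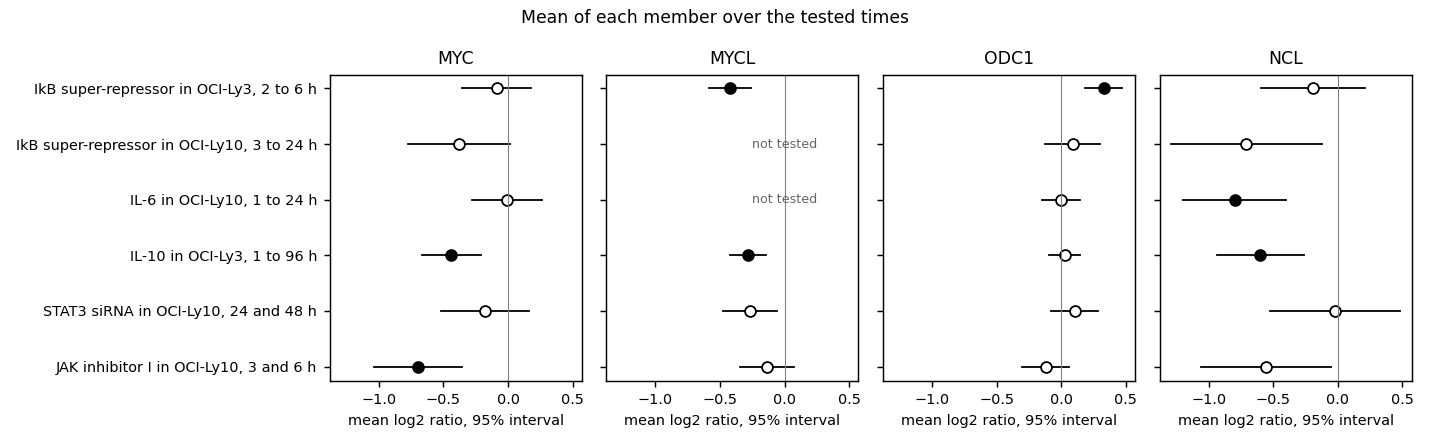
Mean log2 ratio of each gene over the tested times of each experiment, with its 95% interval from limma (horizontal line). Filled circles passed at an adjusted p under 0.05 and open circles did not. MYC passed with IL-10 and the JAK inhibitor, MYCL with the super-repressor and IL-10 in OCI-Ly3, ODC1 with the super-repressor in OCI-Ly3, and NCL with IL-6 and IL-10.

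Across the 26 combinations of experiment and time, the means of MYC had a correlation of 0.37 with those of ODC1 and of 0.10 with those of NCL. With MYCL it was -0.03 over the 23 combinations with a value. The correlation of MYC was 0.02 with STAT3, 0.04 with PRDM1, 0.145 with IRF4, 0.09 with BCL6 and -0.05 with NFKBIA. Points of an experiment share runs of arrays, and 12 of the 26 come from 1 array each. Of 3056 genes with a value throughout, MYC was most like HPX, which encodes hemopexin (0.76), NAA50 (0.73), TMED10 (0.72), DNA2 (0.71) and DCLRE1C (0.71), and least like FPR1 (-0.74), SPRYD7 (-0.72) and RCC1L (-0.69). ODC1 was most like SLC25A5, a mitochondrial ADP/ATP carrier (0.90), SSBP1 (0.89), NME1, a nucleoside diphosphate kinase (0.89), CSE1L (0.88) and PTGES3 (0.88). The lowest for ODC1 were PRKCB (-0.79), BACH2 (-0.77) and ZAP70 (-0.74). NCL was most like the importin gene KPNB1 (0.86), PNN (0.85), IK (0.84), SNW1 (0.83) and TPX2 (0.83), and least like CXCR2 (-0.82), RPS15A (-0.81) and HP1BP3 (-0.77).

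Under the JAK inhibitor the other genes linked to MYC moved both ways. Of 19 measured growth genes 3 rose and 3 fell, where 1.09% of all genes rose and 2.17% fell (list median -0.06). The cyclin gene CCND2 fell by 0.68 ± 0.10 (adjusted p = 0.000849 with limma) and the glycolytic gene LDHA by 0.62 ± 0.10 (adjusted p = 0.00118). SLC3A2 and SLC7A5, whose products together form an amino acid transporter, rose by 0.68 ± 0.12 and 0.64 ± 0.14 (adjusted p = 0.00198 and 0.0144). Of 20 nucleotide and one-carbon genes 2 rose and 1 fell (median -0.11). The mitochondrial one-carbon enzymes MTHFD2 and SHMT2 rose by 0.59 ± 0.10 and 0.565 ± 0.12, and CTPS1, a CTP synthase, fell by 0.30 ± 0.06.

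Of 11 nucleolar genes 0 rose and 1 fell under the inhibitor, the RNA helicase DDX21 at -0.53 ± 0.09 (adjusted p = 0.00194 with limma). Over all genes 1.09% rose and 2.17% fell in this experiment. A partner list held dimer partners and antagonists of MYC and other factors linked to it, such as RUVBL2. Of its 9 measured genes 1 rose, MXD3 (0.45 ± 0.10), which competes for MAX. Of 9 genes listed as repressed by MYC 2 rose and 0 fell, the stress gene GADD45A (0.42 ± 0.08) and TXNIP, a brake on glucose uptake (0.39 ± 0.07). Of 21 regulators of MYC 0 rose and 2 fell, STAT3 (-0.69 ± 0.17, adjusted p = 0.0264) and CTCF (-0.42 ± 0.11, adjusted p = 0.0373). These 13 genes all had 1 sign on 4 of 4 arrays. None of them passed in a fit of the inhibitor arrays alone, where 12 genes did in all, and 8 of them, SLC7A5 and SHMT2 included, lost the call on leaving out 1 array. With the run as a block STAT3, CTCF and SLC7A5 did not pass.

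With IL-10, 9 growth genes fell and 3 rose of 19 (median -0.07, against -0.02 for all genes, of which 19.2% fell and 16.1% rose). The chaperone gene HSPD1 fell by 0.42 ± 0.07 (adjusted p = 0.000328 with limma) and TFAM, which maintains mitochondrial DNA, by 0.28 ± 0.08 (adjusted p = 0.00758). Of 20 nucleotide genes 7 fell and 2 rose (median -0.05), and with the run as a block 1 fell. Of 11 nucleolar genes 3 fell and 1 rose, against 1 fall with that block, and of 9 genes of the partner list 2 fell and 1 rose, against 0 and 0.

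Of 8 genes listed as repressed by MYC 5 rose and 0 fell with IL-10 (median 0.26). Over all genes 16.1% rose and 19.2% fell. Whether MYC represses each listed gene, ID2 included, was not tested. ID2, an inhibitor of helix-loop-helix factors, rose by 1.22 ± 0.11 (adjusted p = 1.11e-07 with limma) and CDKN1B, a cell cycle inhibitor, by 0.40 ± 0.06 (adjusted p = 3.7e-05), each on 10 of 10 arrays. The count was 4 or 5 in every alternative tried. Of 21 regulators 6 rose and 8 fell, among them ETS1, a lymphoid transcription factor, at -0.65 ± 0.07 (adjusted p = 1.3e-06). SLC3A2 and SLC7A5 were at -0.43 and -0.46 with IL-10 and rose under the inhibitor. CCND2 was at -0.95 with IL-10 and fell under the inhibitor. These 3 values with IL-10 were picked after they had been seen, and none of them both passed and had 1 sign on every array.

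With the super-repressor in OCI-Ly3, where ODC1 rose, 4 of 20 nucleotide genes rose and 0 fell, and 0 of the 20 means were below 0 (median 0.17, against -0.03 for all genes, of which 9.16% rose and 4.87% fell). RRM1, a subunit of ribonucleotide reductase, rose by 0.29 ± 0.06 (adjusted p = 0.00248 with limma), ADSL, an enzyme of purine synthesis, by 0.27 ± 0.06 (adjusted p = 0.00548) and NME1 by 0.23 ± 0.07 (adjusted p = 0.0287). Of 19 growth genes 3 rose and 0 fell, among them APEX1, a DNA repair enzyme (0.26 ± 0.06), and EIF4E, which binds the cap of messenger RNA (0.23 ± 0.06). With the run as a block 1 nucleotide gene and 0 growth genes rose. There were 9 such nucleotide genes without the first array of 2 h, and 2 without the second array of 2 h, either array of 4 h or the first of 6 h.

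Of 11 nucleolar genes 2 rose and 1 fell there, NOC3L at -0.55 ± 0.15 (adjusted p = 0.0173 with limma). Over all genes 9.16% rose and 4.87% fell in this experiment. Of 9 genes of the partner list RUVBL2, a helicase that binds MYC, rose by 0.31 ± 0.07. Of 8 genes listed as repressed by MYC 2 rose and 1 fell. They were TXNIP (0.38 ± 0.06), BTG1, which restrains proliferation (0.32 ± 0.08), and the stress gene GADD45B (-0.56 ± 0.14). Of 21 regulators 1 rose, HNRNPK (0.29 ± 0.06), and 3 fell, the kinase gene PIM2 (-0.64 ± 0.14), IRF4 and the B cell factor PAX5 (-0.22 ± 0.06). With the run as a block 11 of the 15 genes named for this experiment lost the call, PIM2, ADSL and RUVBL2 among them. Without both arrays of 2 h SAT1, NOC3L (-0.38), NME1 (0.23) and GADD45B (-0.43) did not pass.

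With the super-repressor in OCI-Ly10 1 of 18 growth genes and 1 of 21 regulators passed, where 0.532% of all genes did, and 0 genes of the other lists. CCND2 fell by 0.56 ± 0.12 (adjusted p = 0.0377 with limma) and PIM2 by 1.00 ± 0.20 (adjusted p = 0.0212), both lost with the run as a block and on leaving out 1 array. With IL-6 1 of 9 repressed genes, 1 of 21 regulators and 0 genes of the other lists passed, against 4.54% of all genes. NDRG1, a gene that MYC represses, rose by 0.34 ± 0.07 (adjusted p = 0.00941) and ETS1 fell by 0.39 ± 0.09 (adjusted p = 0.013), both lost with that block. With STAT3 siRNA 1 of 11 nucleolar genes, 2 of 21 regulators and 0 genes of the other lists passed, against 3.31% of all genes. NHP2, a component of box H/ACA ribonucleoproteins, rose by 0.42 ± 0.08 (adjusted p = 0.00826), and STAT3 and BCL6 (-0.27 ± 0.07, adjusted p = 0.0487) fell. All 3 lost the call in a fit of the siRNA arrays alone, BCL6 and NHP2 on leaving out 1 array, and BCL6 also with the run as a block and with arrays scaled to equal spread.

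**Figure D5:**
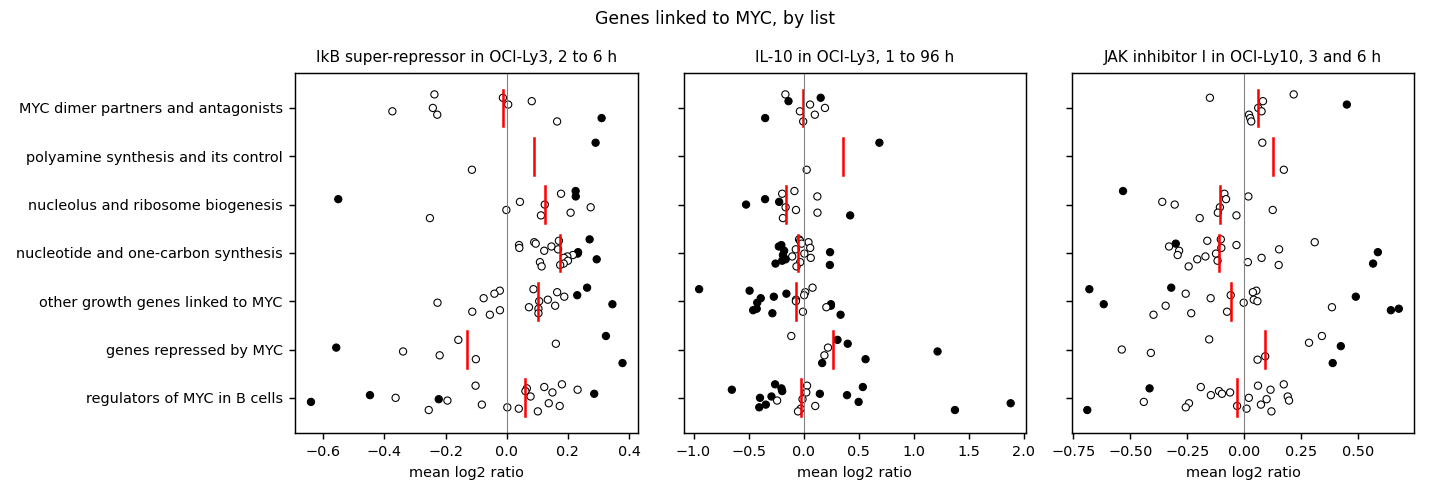
Mean log2 ratio, treated over control, of each measured gene of 7 lists over the tested times of the super-repressor in OCI-Ly3, IL-10 in OCI-Ly3 and JAK inhibitor I in OCI-Ly10. Filled points passed at an adjusted p under 0.05, open points did not, and red bars are list medians. The list labelled dimer partners and antagonists also holds other factors linked to MYC, such as RUVBL2. With the super-repressor the nucleotide genes all lie above 0, and with IL-10 1 of 8 genes listed as repressed by MYC lies below 0.

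The lists cover the array unevenly: 11 of 37 nucleolar, 20 of 27 nucleotide, 19 of 30 growth, 9 of 16 repressed, 10 of 18 partner list, 21 of 25 regulator and 2 of 14 polyamine genes were present. Markers of B cells (7 genes on the array), T and NK cells (8), myeloid cells (3) and erythroid and stromal cells (3) were followed as well. With IL-10 2 B cell markers rose and 2 fell, 1 T and NK marker rose and 1 fell, and 1 myeloid marker rose and 1 fell, where 35.3% of all genes passed. With the super-repressor in OCI-Ly3 1 B cell marker fell (14.0% of all genes passed), with the inhibitor 1 rose (3.26%), and in the other 3 experiments 0 of the markers tested passed. A ratio gives a change of a marker and not its level, so the identity of the lines was not tested. Both channels of an array held the same line. A change in the share of its cells that express a marker cannot be told apart from a change of RNA per cell.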

How the data were processed

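Per the labels, RNA of treated (Cy5) and control (Cy3) cells was hybridised together on 40 spotted arrays. The deposited table holds 1 log ratio per probe and array, taken as log2 of treated over control and already close to centred by the authors (array medians from -0.031 to 0.011), with 12.6% of cells blank. How background, spot quality and normalization were handled upstream is not given in the sources used here. The 4 genes, the gene lists and the tests were chosen with earlier results of these data known, and the lists are support for nothing.

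Arrays were centred on their median. Of the probes, 10169 carried 1 gene symbol, 4 several and 5073 none, and probes of a symbol were averaged. limma 3.58.1 in R 4.3.3 fitted 1 mean per experiment and time (26 groups, 12 with 1 array and 14 with 2). Means over an experiment's times, weighted equally, were tested against 0 with Benjamini-Hochberg adjustment over all genes tested, two-sided, at 0.05. A gene was tested where 75% of the arrays and every time had a value. The moderated test was tested on simulated data, for the mean over the IL-10 times alone. The simulated noise was independent between arrays, so that test does not cover correlation within runs. Genes named besides the members were, per list and experiment, up to 4 that passed with the largest mean and 1 sign on every array, regulators of MYC, and the 5 most and 3 least alike in pattern. A new run of arrays was taken to start where identifiers jump by more than 50.

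Replicate numbers come from the titles, where the 12 single arrays carry none; the replicate block leaves those at 0. Deviations of same-numbered arrays from their group means had correlations of 0.376 to 0.577 with IL-10 and 0.193 to 0.269 with IL-6. With the super-repressor in OCI-Ly3 these correlations ran from -0.319 to 0.32. The siRNA and inhibitor experiments had few pairs and gave 1 correlation each (0.299 and 0.203). Same-numbered arrays of an experiment also shared a run of identifiers, so pairing and run cannot be told apart. Alternatives changed centring, scaling, the summary over probes, single probes, missing values, a run block (correlation 0.269), a replicate block, the arrays fitted and each array left out.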

Additional observations from a re-analysis of the deposited data

Results flagged for a closer look

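The response of MYC to IL-10 in OCI-Ly3 and to IL-6 in OCI-Ly10 differed just past the threshold in a test of the difference itself. Over 1, 3, 6 and 24 h the mean was -0.57 with IL-10 and -0.01 with IL-6, a difference of -0.56 ± 0.17 (SE, 15 arrays, adjusted p = 0.0496 with limma). The call was lost on leaving out any one of 12 of the 15 arrays, with the run as a block term (adjusted p = 0.187), with a value required on every array (adjusted p = 0.0524), in a fit of these 2 experiments alone (adjusted p = 0.0785) and for 3 of the 4 probes taken alone. The line and the cytokine cannot be told apart, and 350 of 3687 genes (9.49%) differed in the same comparison.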

How the results depend on the processing

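Under settings other than leaving out 1 array, 333 results of the 4 genes kept their direction and side of the threshold, 25 lost the call, 4 gained it and 22 changed sign. The cause was not tested, except that fits of 1 experiment, or without an array, use fewer samples. Subtracting the other 5 experiments and dropping both arrays of 2 h were chosen after seeing the data.

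With arrays scaled to equal spread, genes passing numbered 238 (super-repressor in OCI-Ly10), 455 (IL-6), 83 (siRNA), 232 (inhibitor), 296 (IL-10 late minus early), 2 (super-repressor between lines) and 208 (inhibitor minus IL-6). NCL then passed with the super-repressor in OCI-Ly10 (-1.005), ODC1 with IL-6 turned to 0.009089, and MYC at 6 h of IL-10 (-0.6495), MYC at 8 h of siRNA (-0.8085) and MYCL at 24 h of IL-10 (-0.4161) did not pass. With the run as a random block the counts were 103 (super-repressor in OCI-Ly3), 5 (in OCI-Ly10), 32 (IL-6), 48 (siRNA), 77 (inhibitor), 103 (IL-10 minus IL-6) and 48 (inhibitor minus IL-6), ODC1 with the super-repressor in OCI-Ly3 (0.3196), NCL with IL-6 (-0.8147), MYC in IL-10 minus IL-6 (-0.5535) and MYC at 8 h of siRNA (-0.9934) lost the call, and ODC1 with IL-6 was 0.0001317. The replicate block had a term in every experiment with numbered arrays, which is all but the super-repressor in OCI-Ly10. With it the counts were 1105 (super-repressor in OCI-Ly3), 39 (in OCI-Ly10), 314 (IL-6), 417 (siRNA), 260 (inhibitor), 542 (IL-10 minus IL-6) and 160 (inhibitor minus IL-6). The replicate block gave IL-10 late minus early a call for MYC (0.4609) and NCL (-0.7837), and changed no other call of the 4 genes.

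In fits of 1 experiment alone the counts were 368 (super-repressor in OCI-Ly3), 71 (IL-6), 1031 (IL-10), 0 (siRNA, against 903 at an unadjusted p under 0.05 in limma over all arrays), 12 (inhibitor), 226 (IL-10 late minus early) and 209 (IL-10 minus IL-6). There MYC with the inhibitor (-0.6968), in IL-10 minus IL-6 (-0.5568), at 6 h of IL-10 (-1.008) and at 8 h of siRNA (-1.157), and MYCL at 24 h of IL-10 (-0.5055), lost the call, and MYC in inhibitor minus IL-6 (-0.5324) gained one. The super-repressor in OCI-Ly10 could not be fitted alone. Requiring every value gave 231 genes in IL-10 minus IL-6, where MYC (-0.5568) did not pass.

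Minus the other 5 experiments, MYC was 0.2519 (super-repressor in OCI-Ly3), 0.3478 (IL-6), -0.1703 (IL-10), 0.1425 (siRNA) and -0.4777 (inhibitor), NCL 0.3442, -0.3815, -0.146 and 0.5473 in the first 4 of these, and ODC1 -0.05494 with IL-10. MYCL was not tested so. Without both arrays of 2 h NCL was 0.04083 in OCI-Ly3.

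The median over probes gave MYC 0.01012 with IL-6 and -0.919 at 8 h of siRNA. Single probes gave MYC 0.027, 0.01737 and 0.017 (IL-6), -0.5972 (inhibitor), -0.434, -0.5364 and -0.8372 (IL-10 minus IL-6), and -0.556 and -0.816 (8 h of siRNA). For ODC1 they gave -0.02167 (super-repressor in OCI-Ly10), 0.0125, 0.00075 and 0.04687 (IL-6), and -0.005583 and -5e-04 (IL-10). For MYCL they gave 0.07725 (inhibitor), -0.262 (IL-10 late minus early), 0.09975 (inhibitor minus IL-6) and -0.44 (24 h of IL-10).

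Leaving out 1 array moved the counts from 269 to 957 (super-repressor in OCI-Ly3), 1 to 17 (in OCI-Ly10), 93 to 147 (IL-6), 21 to 106 (siRNA), 44 to 160 (inhibitor), 306 to 602 (IL-10 late minus early) and 41 to 80 (inhibitor minus IL-6). ODC1 ran from -0.03075 to 0.2391 (super-repressor in OCI-Ly10), -0.006563 to 0.03983 (IL-6), -0.02079 to 0.07104 (IL-10) and -0.01306 to 0.1247 (IL-10 minus IL-6). NCL ran from -0.8604 to -0.7344 (IL-6), -0.6851 to -0.447 (IL-10), -0.3425 to 0.2958 (siRNA) and -0.1948 to 0.3587 (inhibitor minus IL-6). MYC ran from -0.03586 to 0.01805 (IL-6), -0.4005 to 0.0405 (siRNA), -0.7705 to -0.6231 (inhibitor), 0.2758 to 0.646 (IL-10 late minus early), -0.6956 to -0.418 (IL-10 minus IL-6) and -1.564 to -0.4532 (6 h of IL-10). MYCL ran from -0.2568 to 0.1472 (IL-10 late minus early) and -0.687 to -0.324 (24 h of IL-10). Values near 0 turned for NFKBIA with IL-6 (-0.002075 uncentred, -0.002375 by the median over probes, -0.0136 to 0.02913 without 1 array) and, without 1 array, for NFKBIA with the inhibitor (-0.1053 to 0.0319), BCL6 with the super-repressor in OCI-Ly10 (-0.1075 to 0.009133) and IRF4 with siRNA (-0.3285 to 0.0145).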
